A study of Mus musculus with 6 samples.

Results

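The 2′-5′-oligoadenylate synthetase (OAS) genes were followed in hypoxic cardiomyocyte cultures given β-sitosterol (β-SITO), a plant sterol, or vehicle. These cultures also held transcripts of fibroblasts and other cell types, so levels are those of whole cultures. Members were the rows of the count table whose gene name was Oas1a, Oas1b, Oas1c, Oas1g, Oas2, Oas3, Oasl1 or Oasl2, which gave 8 of the 57010 genes in the table. All 8 members were lower in the HO + β-SITO group, by 5.96-fold (Oas1c) to 177-fold (Oasl1).

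The 6 libraries came from NMCMs, primary neonatal mouse cardiomyocytes isolated by the study from C57BL/6 mice aged 1 to 3 days. All cells were kept under hypoxia (HO). The 3 libraries of the HO + Vehicle group (V1 to V3) were from cells that received vehicle, and T4 to T6, the libraries of the HO + β-SITO group, from cells that received β-SITO, at a dose and for a time not stated for these libraries in the sources used here. No normoxic library was used here, so every difference is between treatments under hypoxia. The labels do not say whether the 3 libraries of a group were separate cultures, and p-values therefore measure the spread between these libraries, which may be technical. The library names of the HO + β-SITO group end in a letter that those of the HO + Vehicle group lack. If that letter marks another round of preparation, its part in any difference cannot be told apart from that of β-SITO.

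OAS proteins are interferon-induced sensors of double-stranded RNA. On binding it they join ATP into short chains of adenylate with 2′-5′ links (2-5A), a messenger of the antiviral response. OAS genes are known to be switched on by interferon-activated transcription factors, which bind the interferon-stimulated response element (ISRE) in promoters.

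The promoters are shown first, because the 8 genes moved together and lie in a pair of clusters. RefSeq (GRCm38.p6) gave a window for 6 of the 8 members, all but Oas1b and Oas2, covering 250 bases before and 50 bases after the gene start. A core of the ISRE, GAAANNGAAA or on the other strand TTTCNNTTTC, was searched for in each window and stands in capitals below. The 250 bases before the start are given 5′ to 3′ on the strand of the gene.
Oas1a, chr5:120907526-120907775, minus strand: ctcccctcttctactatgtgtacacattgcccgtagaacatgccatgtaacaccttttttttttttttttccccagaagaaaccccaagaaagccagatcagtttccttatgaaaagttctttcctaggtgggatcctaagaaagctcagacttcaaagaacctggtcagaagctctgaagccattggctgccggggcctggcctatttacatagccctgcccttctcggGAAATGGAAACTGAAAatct
Oas1g, chr5:120887614-120887863, minus strand: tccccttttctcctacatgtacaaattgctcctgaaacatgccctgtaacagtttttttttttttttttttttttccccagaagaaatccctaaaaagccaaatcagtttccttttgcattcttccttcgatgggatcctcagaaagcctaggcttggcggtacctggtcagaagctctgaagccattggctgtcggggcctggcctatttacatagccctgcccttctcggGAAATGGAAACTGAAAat
Oas3, chr5:120777660-120777909, minus strand: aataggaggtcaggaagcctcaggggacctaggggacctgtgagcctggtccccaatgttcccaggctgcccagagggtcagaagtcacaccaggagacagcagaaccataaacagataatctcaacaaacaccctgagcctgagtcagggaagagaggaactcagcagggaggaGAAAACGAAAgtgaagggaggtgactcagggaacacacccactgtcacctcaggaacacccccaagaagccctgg
Oas1c, chr5:120812515-120812764, minus strand: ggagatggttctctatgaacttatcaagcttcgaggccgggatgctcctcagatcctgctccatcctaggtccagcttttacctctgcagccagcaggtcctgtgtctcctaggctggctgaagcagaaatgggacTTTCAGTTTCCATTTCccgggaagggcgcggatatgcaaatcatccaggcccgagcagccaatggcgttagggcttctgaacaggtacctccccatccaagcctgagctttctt
Oasl1, chr5:114922990-114923239, plus strand: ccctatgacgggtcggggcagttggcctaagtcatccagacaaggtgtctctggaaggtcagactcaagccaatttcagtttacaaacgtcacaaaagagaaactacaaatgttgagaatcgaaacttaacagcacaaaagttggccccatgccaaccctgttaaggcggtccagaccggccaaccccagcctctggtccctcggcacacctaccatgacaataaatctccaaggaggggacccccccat

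The core was found in the windows of 4 of these 6 members, Oas1a, Oas1g, Oas3 and Oas1c, against 1079 of 27025 genes with a window of the same length (3.99%, or 3.44% of all 32851 windows). In Oas1a and Oas1g it occurred 2 times, at bases -20 to -11 and -14 to -5 before the start of Oas1a and -18 to -9 and -12 to -3 before that of Oas1g. Each pair of matches overlapped, as GAAATGGAAA followed by GAAACTGAAA. The windows of Oas1a and Oas1g are close copies, as given below, so their matches are not independent of each other. In Oas3 the core occurred 1 time, at -75 to -66, as GAAAACGAAA. In Oas1c it occurred 2 times on the opposite strand, at -114 to -105 and -108 to -99. The windows of Oasl1, printed as the member with the largest fold change, and of Oasl2 did not hold these letters. A match describes the sequence only, and binding of a factor was not measured in these libraries.

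By the coordinates of the count table (GRCm39), the members lie on chromosome 5 at a pair of loci. Oasl2 and Oasl1 occupy 41.0 kb. Oas2, Oas3, Oas1c, Oas1b, Oas1g and Oas1a occupy 177 kb. Oas1c and Oas1b lie head to head on opposite strands with 120 bases between them, so the 250 bases printed for Oas1c are longer than the stretch between the starts of these genes. If both sources place the starts alike, the Oas1c matches (-114 to -105 and -108 to -99) lie in this stretch, nearer to the start of Oas1b. They are on the strand of Oas1b, and read on it they have the letters of the pair in Oas1a and Oas1g. Which of the 2 genes they act on was not tested.

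Reads were counted per gene by the authors, and levels are given as raw counts or as CPM, which are counts divided by the library size after TMM scaling. The libraries held 16694734 to 18460522 counts. Groups were compared over the 14799 genes with enough counts, by the quasi-likelihood test of edgeR, and p-values were adjusted after Benjamini and Hochberg. A differentially expressed gene (DEG) had an adjusted p under 0.05 and a change of more than 2-fold, the study's threshold. All 8 members were tested, and each had at least 14 counts in every library. A lower level in RNA from whole cultures can mean fewer cells that express a gene or less RNA per cell, which cannot be told apart here.

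The library T4 stood apart from T5 and T6, with a chi-square per gene of 8.57 and 9.06 against 1.96 between T5 and T6. Pairs of HO + Vehicle libraries had values of 4.71 to 7.51. All 10 cardiomyocyte markers were lowest in T4 among the HO + β-SITO libraries. Macrophage markers summed to 3260 CPM in T4, against 2676 CPM in T5 and 2657 CPM in T6. T4 was also the highest HO + β-SITO library for 5 of the 8 members, and whether these facts are related was not tested. Without T4 all 8 members were still called lower by edgeR, with log2 fold changes of -7.81 (Oasl1) to -2.53 (Oas1c), and the summed OAS level had one of -5.40 in place of -5.34.

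All 8 members were DEGs lower with β-SITO, against 10.1% of the genes tested. For all 8, every HO + β-SITO library was below every HO + Vehicle library, which held for 35.8% of the genes tested. Of the 8 members, 7 were lower by more than 10-fold, against 2.65% of the genes tested. The median log2 fold change of the members was -5.47, against -0.0073 for all genes tested.

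**Figure D1:**
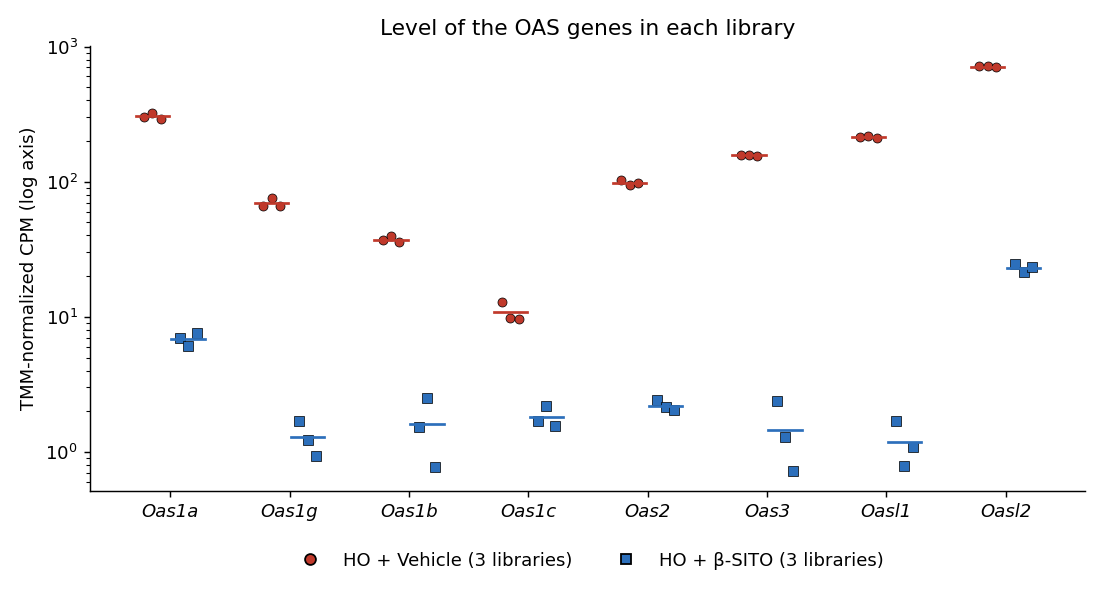
Level of the 8 OAS genes in each of the 6 libraries, in TMM-normalized CPM on a log axis, with a point per library and a line at the mean of each group (n = 3). For each OAS gene the HO + β-SITO libraries lie below the HO + Vehicle libraries, by 5.96-fold for Oas1c to 177-fold for Oasl1, and the groups of no OAS gene overlap.

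Oas1a and Oas1g encode synthetases that make 2-5A. Oas1a (ENSMUSG00000052776, chr5:121034319-121045584, minus strand) had 4740, 5130 and 4728 counts in V1, V2 and V3 and 136, 109 and 146 in T4, T5 and T6. Its level fell from 304.7 ± 14.99 to 6.91 ± 0.740 CPM (mean ± SD, n = 3; log2 fold change -5.46, SE 0.099, adjusted p = 1.06e-16). The lowest HO + Vehicle library was far above the highest HO + β-SITO library. Oas1g (ENSMUSG00000066861, chr5:121014205-121025676, minus strand) had 1052, 1213 and 1069 counts in V1 to V3 and 33, 22 and 18 in T4 to T6. It fell from 69.6 ± 5.59 to 1.29 ± 0.382 CPM (log2 fold change -5.74, SE 0.25, adjusted p = 7.51e-15).

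These genes are close copies, so the split of reads between them is uncertain. Their longest coding transcripts in GENCODE vM21 were identical at 97.53% of 1860 aligned bases, and 32.4% of the 150-base windows of Oas1a and 30.1% of those of Oas1g occurred in the other gene. The next most similar pair of members, Oas1b and Oas1g, was identical at 77.09% of aligned bases. No other member shared a 150-base window with any Oas gene. In the 250 bases printed above, Oas1a and Oas1g were identical at 212 of 244 aligned bases (86.9%). The sum over both genes does not depend on the split between them. It still depends on how reads that match both were counted, a setting not given in the sources used here. Summed counts were 5792, 6343 and 5797 in V1 to V3 and 169, 131 and 164 in T4 to T6. The sum was 45.7-fold lower in the HO + β-SITO group (374 ± 20.5 against 8.19 ± 0.724 CPM). A sum necessarily has a fold between those of its parts, here 44.0 for Oas1a and 53.5 for Oas1g. For the sum, the exact permutation test gave p = 0.1 (two-sided), the smallest p that 3 libraries against 3 allow.

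Oas1b is known for resistance to flaviviruses in mice with a full-length gene, and in C57BL/6 mice its protein is truncated. Oas1b (ENSMUSG00000029605, chr5:120950700-120962228, plus strand) had 582, 627 and 577 counts in V1 to V3 and 30, 45 and 15 in T4 to T6. It fell from 37.3 ± 1.83 to 1.62 ± 0.877 CPM (log2 fold change -4.54, SE 0.49, adjusted p = 6.61e-12). The 3 HO + β-SITO libraries differed more among themselves than those of most other members, with T5 at 2.53 CPM and T6 at 0.781 CPM.

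Oas1c was the member that changed least. Oas1c (ENSMUSG00000001166, chr5:120938259-120950579, minus strand) had 205, 157 and 156 counts in V1 to V3 and 33, 39 and 30 in T4 to T6. It fell from 10.8 ± 1.85 to 1.82 ± 0.332 CPM (log2 fold change -2.58, SE 0.20, adjusted p = 4.84e-09), which is 5.96-fold. V1 was the highest library, and V2 and V3 lay close together. No 150-base window of Oas1c was shared with another Oas gene, and 10.7% of its 50-base windows occurred in Oas1d, Oas1e, Oas1f or Oas1h.

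Oas2 and Oas3 are larger synthetases built from repeated OAS units, and Oas3 is known to respond to long double-stranded RNA. Oas2 (ENSMUSG00000032690, chr5:120868398-120887918, minus strand) had 1617, 1502 and 1567 counts in V1 to V3 and 47, 38 and 39 in T4 to T6. It fell from 97.8 ± 4.03 to 2.19 ± 0.199 CPM (log2 fold change -5.47, SE 0.082, adjusted p = 2.97e-16). Replicates of Oas2 were close in both groups. Oas3 (ENSMUSG00000032661, chr5:120891163-120915726, minus strand) had 2511, 2505 and 2507 counts in V1 to V3 and 46, 23 and 14 in T4 to T6. It fell from 157 ± 1.61 to 1.46 ± 0.831 CPM (log2 fold change -6.73, SE 0.49, adjusted p = 6.89e-15), or 106-fold. The HO + Vehicle libraries of Oas3 were nearly equal, whereas T4 held more than the other HO + β-SITO libraries together.

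Oasl1 and Oasl2 carry ubiquitin-like domains after the OAS unit. Mouse Oasl1 makes no 2-5A and is known to restrain translation of Irf7, whereas mouse Oasl2 is an active synthetase. Oasl1 (ENSMUSG00000041827, chr5:115061299-115075974, plus strand) had 3379, 3498 and 3383 counts in V1 to V3 and 33, 14 and 21 in T4 to T6. It fell from 214 ± 4.84 to 1.19 ± 0.462 CPM (log2 fold change -7.47, SE 0.32, adjusted p = 1.69e-16), or 177-fold. Oasl2 (ENSMUSG00000029561, chr5:115034997-115050295, plus strand) had 11306, 11414 and 11349 counts in V1 to V3 and 481, 381 and 446 in T4 to T6. It fell from 711 ± 6.62 to 23.1 ± 1.65 CPM (log2 fold change -4.94, SE 0.060, adjusted p = 6.42e-17), or 30.7-fold. Oasl2 kept the most counts of any member in every library of both groups.

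The order of the folds was compared between neighbours, by the difference of their log2 levels in each library. Oasl1 and Oas3, the members with the largest folds, overlapped in fold between libraries (difference -0.73, SE 0.40, exact permutation test, two-sided, p = 0.4). The next members in the order, Oas1g against Oas2 and Oas2 against Oas1a, likewise overlapped, with differences of -0.27 (SE 0.20, p = 0.3) and -0.01 (SE 0.14, p = 1, exact permutation tests). Steps without overlap of the libraries lay between Oas3 and Oas1g (-0.99, SE 0.25), between Oas1a and Oasl2 (-0.52, SE 0.076) and between Oas1b and Oas1c (-1.96, SE 0.39). Each of these gave p = 0.1 in the exact permutation test, the smallest this design allows. Oasl2 and Oas1b overlapped (-0.40, SE 0.52, exact permutation p = 0.7). Oasl1 and Oasl2, the neighbours of the smaller locus, thus stood at different places in the order, and so did Oas1c and Oas1b, whose starts are the closest.

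Per kilobase of exon, the order of levels in the HO + Vehicle group was Oas1a (162 CPM per kb), Oasl2 (112), Oasl1 (82.1), Oas1g (29.7), Oas3 (22.2), Oas2 (22.0), Oas1b (18.7) and Oas1c (4.50). In this order Oas3 and Oas2 overlapped and all other neighbours were apart in every library. In the HO + β-SITO group Oas1a (3.66 CPM per kb) and Oasl2 (3.63) overlapped and stood above the other 6 members. Those 6 lay between 0.812 (Oas1b) and 0.207 (Oas3) CPM per kb, and each overlapped its neighbour in the order. Among 14640 genes ranked by level per kilobase, Oas1a moved from rank 292 to rank 8206 and Oasl1 from rank 628 to rank 13120.

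Summed over the 8 members, 25392, 26046 and 25336 counts in V1 to V3 stood against 839, 671 and 729 in T4 to T6. The members held 0.152 ± 0.00385% of all counts in the HO + Vehicle group and 0.00416 ± 0.000331% in the HO + β-SITO group. Their summed level was 1604, 1633 and 1570 CPM in V1 to V3 and 43.1, 37.7 and 37.9 CPM in T4 to T6, a 40.5-fold difference (log2 fold change -5.34, exact permutation test, two-sided, p = 0.1).

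The makeup of the OAS counts was given by the share of each member. Oasl2 held 44.4 ± 0.502% of the OAS counts in the HO + Vehicle group and 58.4 ± 2.40% in the HO + β-SITO group. Oasl1 went from 13.4 ± 0.0621% to 2.97 ± 0.926% and Oas3 from 9.80 ± 0.158% to 3.61 ± 1.79%. Oas1c went the other way, from 0.675 ± 0.115% to 4.62 ± 1.04%. For these 4 members, and for Oas1g (4.34% to 3.23%) and Oas2 (6.11% to 5.54%), no HO + β-SITO library lay within the range of HO + Vehicle, with p = 0.1 for each member in the exact permutation test (two-sided) and 0.133 after Benjamini-Hochberg adjustment over the 8 members. The shares of Oas1a (19.0% and 17.5%) and of Oas1b (2.33% and 4.11%) overlapped between the groups (exact permutation p = 0.4 for each). With shares taken per kilobase of exon, Oas1g (6.57% and 5.17%, exact permutation p = 0.2) and Oas2 (4.86% and 4.66%, p = 0.3) overlapped as well. Those of Oasl2, Oasl1, Oas3 and Oas1c remained apart. The shares of 1 library sum to 100%, so they do not move independently.

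**Figure D2:**
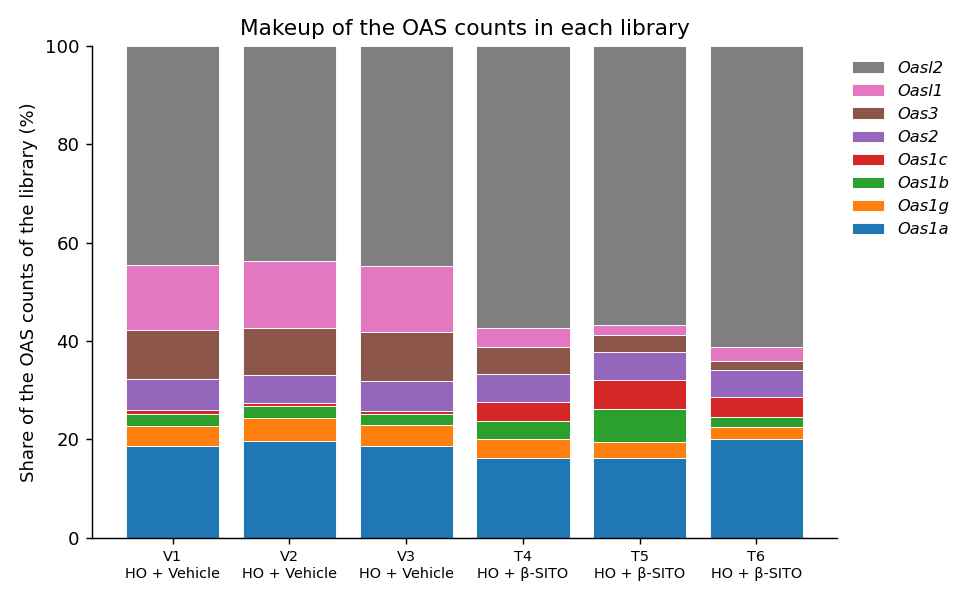
Makeup of the OAS counts in each library, as the share of each of the 8 members in percent, with 1 bar per library and bars that start at 0. Oasl2 takes 44.4% on average in the HO + Vehicle libraries and 58.4% in the HO + β-SITO libraries, while the segments of Oasl1 and Oas3 are thinner and that of Oas1c thicker.

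Among the replicates, V2 was the highest HO + Vehicle library for 5 members and V3 the lowest for 7. T4 was the highest HO + β-SITO library for 5 members and T6 the lowest for 5. These steps were small beside the difference between the groups, since the highest HO + β-SITO library of any member stayed below the lowest HO + Vehicle library of that member.

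Genes that act beside the synthetases, some on 2-5A itself, were taken as the 2-5A pathway list. By edgeR's test, 0 of its 4 tested genes were DEGs lower with β-SITO and 1 (Enpp1) was a DEG higher, against 12.8% of all genes tested. DESeq2 gave the same counts, and 2 genes were lower and 1 higher at an unadjusted p under 0.05. Enpp1, an ectoenzyme that splits nucleotides and related phosphodiesters, rose from 42.5 ± 3.67 to 122 ± 3.38 CPM (log2 fold change 1.52, adjusted p = 2.26e-11). Abce1, a ribosome recycling factor, was slightly lower (log2 fold change -0.44, adjusted p = 7.38e-05). Pde12, a phosphodiesterase that breaks down 2-5A, was likewise slightly lower (-0.26 on the same scale, adjusted p = 0.0176). Both passed the adjusted p without the 2-fold change. Whatever the fold, 33.8% of all genes tested passed the adjusted p as lower. Akap7, which has a domain that cleaves 2-5A, stood at 0.13 on the log2 scale (adjusted p = 0.248). The groups were apart for each of the 4 genes, of which 2 were higher with β-SITO, against 34.8% of all genes tested, and 2 lower, against 35.8%. The median log2 fold change of the list was -0.06.

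Other proteins that bind or edit double-stranded RNA or act next to it, with the OAS-related sensor Cgas, were taken as a list of partners. Of 11 tested by edgeR, 7 were DEGs lower with β-SITO, 0 were DEGs higher and 4 were not called, against 10.1% lower and 12.8% higher among all genes tested. The median log2 fold change of the list was -2.95. DESeq2 also called 0 higher, and 2 were higher at an unadjusted p under 0.05. Zbp1, which senses Z-form nucleic acids, fell from 165 ± 5.78 to 1.78 ± 0.553 CPM (log2 fold change -6.52, adjusted p = 3.66e-16). The RNA helicases that detect viral RNA fell as well, with log2 fold changes of -4.33 for Dhx58, -3.70 for Ifih1 and -3.28 for Rigi. Tlr3, the endosomal receptor for double-stranded RNA, fell too (log2 fold change -4.12). Eif2ak2 (PKR), the kinase that stops translation on the same ligand, fell from 286 ± 18.8 to 36.9 ± 0.718 CPM. Adar, the editor that limits double-stranded RNA, fell (log2 fold change -2.57). The 4 genes not called were Cgas (log2 fold change -0.89), Stau1 (-0.45), Prkra (0.35) and the adaptor Mavs (0.41). All 4 passed the adjusted p without the 2-fold change, Cgas and Stau1 as lower and Prkra and Mavs as higher. Whatever the fold, 33.8% of all genes tested passed the adjusted p as lower and 33.0% as higher.

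The inducers list held interferons, their receptors, the kinases and factors behind them and a pair of brakes. Of 19 genes listed 14 were tested, of which edgeR called 8 lower with β-SITO and 0 higher and left 6 not called, against 10.1% lower and 12.8% higher among all genes tested. The median log2 fold change of the list was -1.68. DESeq2 also called 0 higher, and 1 was higher at an unadjusted p under 0.05. The interferon genes of the list, which leaves out other interferons, were at or near 0. Ifna4, Ifnl2, Ifnl3 and Ifng had no count in any library, and Ifnb1 had 1 count in V2. A count of 0 allows up to 3 counts per library, or at most 0.189 CPM. Irf7, the factor that amplifies interferon responses, fell from 1226 ± 75.7 to 10.7 ± 1.49 CPM (log2 fold change -6.85, adjusted p = 6.45e-17). Usp18, a brake on the interferon receptor, fell from 462 ± 16.6 to 3.91 ± 1.31 CPM (log2 fold change -6.87, adjusted p = 6.68e-16).

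Factors that carry the interferon signal to DNA fell by unequal amounts, with log2 fold changes of -3.43 for Stat2 and -1.67 for Irf9. The other DEGs of the list were Irf1 (-3.51), the kinase Jak2 (-3.47), the brake Socs1 (-3.24) and the receptor chain Ifnar2 (-1.69). The 6 genes not called passed the adjusted p without the 2-fold change, 5 as lower and 1 as higher. They were Tyk2 (-0.84), Ifnar1 (-0.79), Ifngr2 (-0.79), Jak1 (-0.78), Ifngr1 (-0.48) and Irf3 (0.37). Whatever the fold, 33.8% of all genes tested passed the adjusted p as lower and 33.0% as higher.

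**Figure D3:**
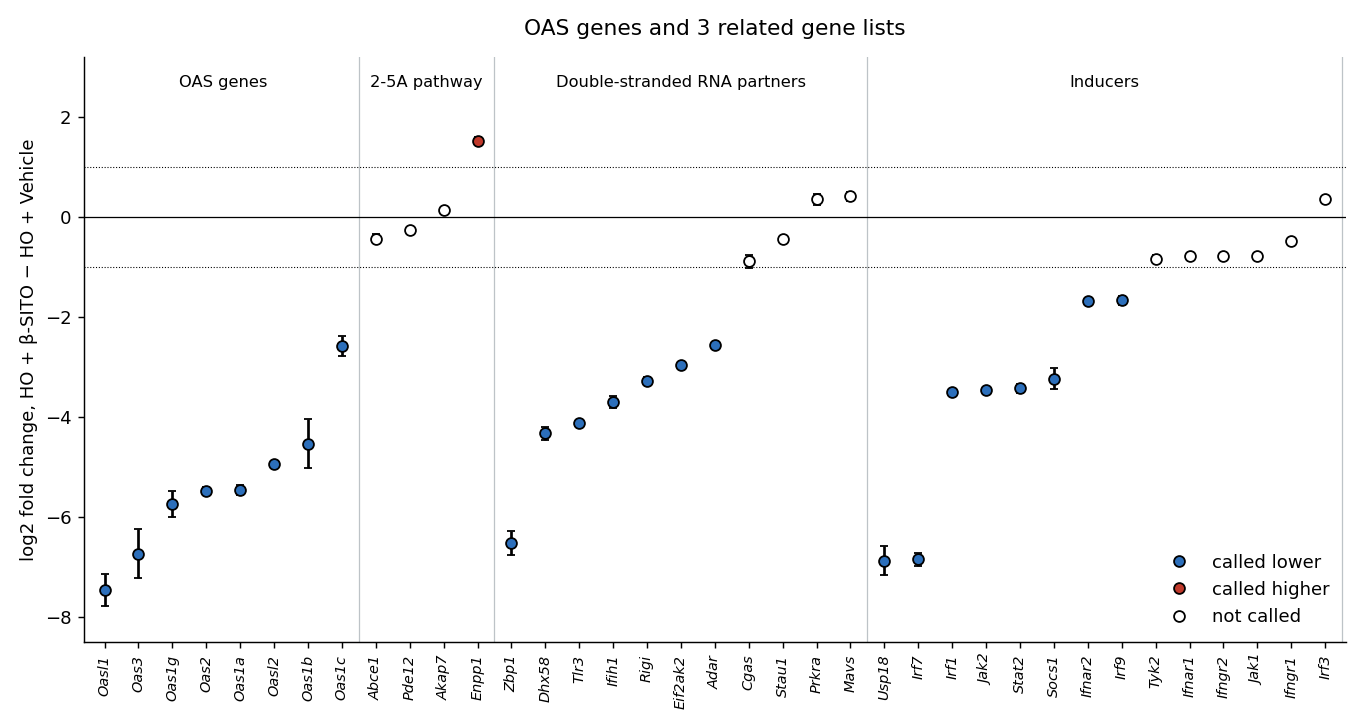
The log2 fold change (HO + β-SITO minus HO + Vehicle) of the 8 OAS genes and of the tested genes of the 2-5A pathway, partners and inducers lists, with bars for the SE of the difference over 3 and 3 libraries and dotted lines at 2-fold. All 8 OAS genes, 7 of 11 partners and 8 of 14 inducers are called lower, and in the pathway list only Enpp1 is called, as higher.

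The genes beside the OAS loci were read in the same way. Of 43 other genes within 200 kb of a member, 16 were tested, of which 0 were DEGs lower by edgeR's quasi-likelihood test, 2 were DEGs higher and 14 were not called. These counts lie near those of all genes tested (10.1% lower and 12.8% higher). At an unadjusted p under 0.05, 3 of them were lower and 6 higher, and DESeq2 called 1 lower, Gm13822, an antisense transcript with at most 9 counts in a library that edgeR did not test. Their median log2 fold change was 0.01 and their range -0.53 (Ddx54) to 1.33 (Dtx1). The nearest tested gene on each side of a locus was 2210016L21Rik, 4.24 kb from Oasl1 (log2 fold change -0.24, adjusted p = 0.0287), 1500011B03Rik, 73.5 kb from Oasl2 (-0.13, adjusted p = 0.178), and Dtx1, 18.4 kb from Oas2. Dtx1, a ubiquitin ligase of the Notch pathway, was low in all libraries and rose from 0.983 ± 0.463 to 2.47 ± 0.647 CPM (adjusted p = 0.00155). Tpcn1, an endolysosomal cation channel, rose from 64.2 ± 3.91 to 153 ± 2.28 CPM (log2 fold change 1.25, adjusted p = 5.95e-11). On the side of Oas1a no gene within 200 kb was tested.

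**Figure D4:**
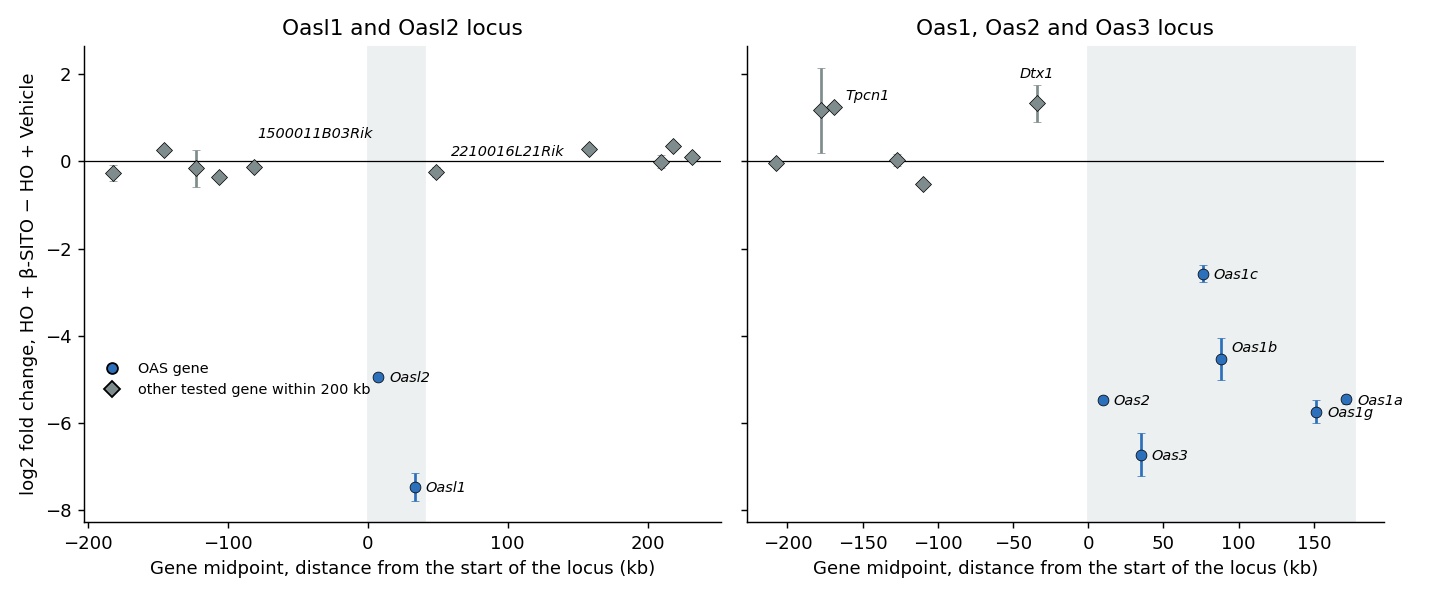
The log2 fold change (HO + β-SITO minus HO + Vehicle) of the OAS genes and of the other tested genes within 200 kb, against the distance of the gene midpoint from the start of the locus in kb, with bars for the SE. Both loci are shaded, and the OAS genes in them lie between -2.58 and -7.47, whereas the 16 neighbours lie between -0.53 and 1.33.

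Other features overlap the members in the count table. The antisense transcript Gm13822 overlaps Oasl1 over 38 bases and had 5, 9 and 7 counts in V1 to V3 and 1, 0 and 0 in T4 to T6. Gm43069, opposite to Oas1c, had at most 5 counts in a library and Gm43068, opposite to Oas2, at most 2. The strand setting of the counting is not given in the sources used here, so reads of a member and of its antisense partner may not have been told apart. These counts were small beside those of the members in the HO + Vehicle group.

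The genes with the profile most like that of the summed OAS level were sought over the 6 libraries. Likeness was the Euclidean distance between centred log2 CPM profiles, and it is a description of genes that separate the same groups. The nearest were H2-Q4, a class I histocompatibility gene (distance 0.0693, log2 fold change -5.32), Phf11 (0.226), Nlrc5, the activator of class I genes (0.248, log2 fold change -5.27), Phf11d (0.261, log2 fold change -5.29) and Ptges, a prostaglandin E synthase (0.264, log2 fold change -5.52). Phf11, annotated as a pseudogene, had 137, 154 and 150 counts in V1 to V3 and 2 in each of T4 to T6. Its log2 fold change was -6.34, and at so few counts its distance depends on the prior count of 2 used for the profiles. H2-Q4, Phf11 and Phf11d belong to families of similar genes, whose reads may be shared. Among the members, Oas2 lay nearest to the sum (0.145) and Oas1c farthest (3.52).

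Markers of cell types were read beside these results. None of the 10 cardiomyocyte markers was a DEG lower and 2 (Myh7 and Nppa) were DEGs higher, with summed levels of 5686 to 6726 CPM in V1 to V3, 5181 CPM in T4 and 8750 and 8823 CPM in T5 and T6. Markers of other cell types were measured as well, and 8 fibroblast markers, of which none was a DEG, summed to 29833 to 31113 CPM in V1 to V3 and 44413 to 45501 CPM in T4 to T6. DEGs higher with β-SITO were 6 of 6 endothelial markers (190 to 218 against 767 to 807 CPM), 7 of 10 macrophage markers (1134 to 1242 against 2657 to 3260 CPM) and 2 of 4 smooth muscle markers (547 to 589 against 1062 to 1243 CPM), where 12.8% of all genes tested were DEGs higher. The macrophage markers moved unequally. Ptprc (log2 fold change -0.03, adjusted p = 0.813) and Adgre1 (-0.06, adjusted p = 0.471) hardly changed, and Itgam stood at 0.47. Lyz2 rose from 647 to 1408 CPM and Mrc1 from 11.8 to 325 CPM, so these markers give no single measure of macrophage number. By edgeR 0 markers of these 5 lists were DEGs lower, and at an unadjusted p under 0.05 2 cardiomyocyte and 2 fibroblast markers were lower. Of 4 lymphocyte markers 3 had no count in any library. The part of these cell types in the OAS levels was not tested.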

How the data were processed

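Total RNA was extracted from NMCMs, and mRNA-seq libraries were sequenced by the study as 150 bp paired-end reads. The authors deposited raw read counts per gene for all 6 libraries in 1 table, without normalization. Per the labels, FastQC, HISAT2, featureCounts and GRCm39 were used, with versions, annotation, strand and multimapping settings not given in the sources used here. The study names an ABclonal kit and the labels an Illumina one.

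From the counts, genes were filtered with filterByExpr (minimum count 10), scaled by TMM and compared by the quasi-likelihood test of edgeR, adjusted after Benjamini and Hochberg over 14799 genes (R 4.3.3, edgeR 4.0.16, limma 3.58.1), with the group as the only term. The study used DESeq2, which was an alternative here (version 1.42.0), along with limma-voom, glmTreat, other scalings, other filters, no fold cutoff, a 500 kb window and the removal of each library. The script was tested on simulated data. No 2 libraries of a group agreed within sampling noise (chi-square per gene 1.96 to 9.06). The biological coefficient of variation was 6.52%. The SE of a log2 fold change is that of the difference of group means of log2 CPM (prior count 0.125). Single values were compared by an exact permutation test over libraries.

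Exon lengths by gene identifier (52081 matched) and transcripts came from GENCODE vM21, and promoters from RefSeq (GRCm38.p6). Sequences were aligned with Biopython 1.88 in Python 3.11.15. Positions of genes are those of the count table.

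Named genes were the 8 members, other genes whose name begins with Oas, called genes of the pathway, partners and inducers lists with receptors, kinases and transcription factors of interferon signaling, the nearest tested gene on each side of a locus, and the 5 genes nearest in profile (log2 CPM, prior count 2). Genes of these lists that were not called, Tpcn1, Ddx54, overlapping features and single cell type markers were named after their values were seen. The members and lists were chosen with earlier results of these data known. Some genes of the lists are not reported here, and the counts leave them out.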

Additional observations from a re-analysis of the deposited data

How the results depend on the processing

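The 8 members were called lower in all 15 alternatives, and their adjusted p reached at most 5.18e-07 (Oas1c). With each library left out in turn, log2 fold changes ran from -5.52 to -5.35 for Oas1a, -4.96 to -4.19 for Oas1b, -2.70 to -2.40 for Oas1c, -6.00 to -5.54 for Oas1g, -5.55 to -5.41 for Oas2, -7.28 to -6.39 for Oas3, -7.81 to -7.22 for Oasl1 and -4.99 to -4.86 for Oasl2. The summed OAS level, -5.34, ran from -5.40 to -5.28 and was -5.19 with library size only and -5.20 with upper-quartile scaling. With no fold cutoff, the pathway list had 2 lower, partners 9 lower and 2 higher, and inducers 13 lower and 1 higher. Neighbours then had 3 lower and 5 higher, and all genes tested 5007 lower and 4885 higher, against 1492 and 1888. Among neighbours, 2 were lower with no filter on low counts (Gm13822 and Gm43069) and 1 with DESeq2 (Gm13822), where the low counts of these genes were tested. In a window of 500 kb 3 were lower and 6 higher, and with glmTreat 1 was higher (Tpcn1). With each library left out, all genes called numbered 1476 to 1565 lower and 1943 to 2101 higher and neighbours called higher 2 to 3. Of 311 values under alternatives for 21 results, 296 kept their direction and their side of the threshold, or stayed within the spread, and 0 reversed. No paired analysis was possible because the groups share no replicate numbers (1 to 3 and 4 to 6). Behind each member lay 14 to 481 counts per library with β-SITO and 156 to 11414 with vehicle, so counting error is larger with β-SITO.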

Other observations

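The 4 other genes of the table whose name begins with Oas had too few counts to be tested. Oas1h (chr5:120999484-121011569) had 6, 1 and 1 counts in V1 to V3, Oas1e (chr5:120924291-120933595) had 1, 1 and 2, and Oas1d (chr5:121052599-121059715) had 1, 0 and 1. In T4 to T6, Oas1e had 0, 1 and 0 counts and Oas1h and Oas1d had none. Oas1f (chr5:120985432-120996049) had no count in any library. A count of 0 allows up to 3 counts, which is 0.154 to 0.189 CPM in these libraries and covers counting error only. Oas1f and Oas1h lie between Oas1b and Oas1g in the locus, and the ISRE core was not found in the promoter window of either.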
